A study of Arabidopsis thaliana with 24 samples.

Results

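The response of Col-0 seedlings of Arabidopsis thaliana to compound **2** was examined across all genes. **2** is coronatine, a toxin of Pseudomonas syringae that acts as a stable mimic of the hormone jasmonoyl-isoleucine. The comparison used the columns that the count table names for **2** and for mock in Col-0, which are 6 of the 24 libraries, with 3 libraries in each group, and 20109 of the 27416 listed genes had enough counts to be tested. Col-0 is the wild-type accession. Seedlings 6 days old in half-strength MS liquid medium received **2** for 8 h, or the medium without a compound (mock), and the dose of 1 µM is stated for the series as a whole and not for each library. Each library was a pool of 5 to 8 whole seedlings, and the study calls the libraries biological replicates. P-values measure the spread between such pools, and in whole seedlings fewer cells of a type cannot be told apart from less RNA per cell. For comparison, 4 further groups of 3 libraries, of the same age and time, were used. These were jaz9-1, one T-DNA insertion line in the repressor gene JAZ9, with **2** and with mock, Col-0 with **2e**, a stereoisomer of **2**, and Col-0 with **12**, known here by its number and described in the series text as a derivative.

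Coronatine joins the receptor COI1 to JAZ repressors, which are then ubiquitinated and degraded. Their loss frees transcription factors such as MYC2, which bind the G-box (CACGTG) and its variants and switch on wound and insect defence. In seedlings jasmonates are also known to slow root and leaf growth. Growth of plant cells needs a loosened wall, and expansins and xyloglucan endotransglucosylases (XTH enzymes, which cut and rejoin the xyloglucan that ties cellulose together) are the best known loosening proteins.

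The libraries held 11680629 to 26580710 counts with **2** and 8626237 to 18815382 with mock. Organelle genes took 1.21% to 1.34% of the counts with **2** and 1.16% to 1.45% with mock. Seedling markers of shoot and root were all detected. AHA2, the root proton pump, had 149, 159 and 157 CPM with **2**, against 362, 334 and 395 CPM with mock (counts per 1000000 of the total), while PYK10, the β-glucosidase of root ER bodies, had 5073, 5326 and 5122 CPM with **2**, against 2928, 3212 and 2700 CPM with mock, the only 1 of 5 root markers that was higher with **2**. It is itself an ER body gene. CASP1 had 18.5, 14.8 and 17.8 CPM with **2**, against 21.6, 26.6 and 24.4 CPM with mock, COBL9 had 3.88, 3.94 and 3.45 CPM with **2**, against 11.9, 8.81 and 7.44 CPM with mock, and PHT1;1, whose groups overlapped, had 56.0, 51.5 and 53.9 CPM with **2**, against 58.5, 60.5 and 52.9 CPM with mock. The 3 pollen markers had no count in these 6 libraries. Of the seed storage markers, CRA1 reached 34.1 CPM in mock replicate 2 and at most 1.399 CPM elsewhere, and CRC (16.1 CPM) and OLEO1 (5.10 CPM) were likewise highest in that library, with at most 0.685 and 0.213 CPM elsewhere. The 2S albumin gene SESA1 had 21.0, 21.6 and 18.4 CPM with **2**, against 0.0999, 0 and 0 CPM with mock. The first principal component of the 6 libraries carried 59.23% of the variance and separated **2** (-72.6 to -59.8) from mock (58.7 to 69.7). The second carried 14.74% and spread mainly the mock libraries, with mock replicate 2 at 61.8 and mock replicate 1 at -48.6. The part of these differences in the results was not tested.

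With **2**, 2392 genes were higher than with mock (11.9% of the genes tested) and 2258 were lower (11.2%), at an adjusted p (false discovery rate, FDR) below 0.1 in the quasi-likelihood test of edgeR. Among these, 921 genes rose at least 2.5-fold and are called upregulated (4.58%), and 561 fell at least 2.5-fold and are called downregulated (2.79%). The rises reached further than the falls. At least 8-fold rises were found in 361 genes and falls of that size in 107, and at 64-fold the counts were 90 and 8. Of these last, 32 rising genes had no count in mock and 7 falling genes had none with **2**, so their fitted folds rest on the prior count. The median upregulated gene changed by 2.52 on the log2 scale and the median downregulated gene by -1.92. The median level of downregulated genes was 1.94 CPM with **2** and 7.47 CPM with mock, and that of upregulated genes was 28.1 CPM with **2** and 4.24 CPM with mock, where CPM is counts per 1000000 after scaling of the libraries by TMM factors. Together the downregulated genes took 0.803% to 0.873% of the counts with **2** and 3.25% to 3.34% with mock, whereas the upregulated genes took 16.3% to 16.6% with **2** and 2.29% to 2.43% with mock. These shares describe genes chosen by the same comparison.

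The number of small falls depended on the scaling. With each library scaled by its total count alone, the median gene lay at -0.20 instead of -0.02 on the log2 scale. That scaling gave 1733 higher and 4753 lower genes, so that 26.7% of the calls were higher, compared with 51.4% under TMM. Larger changes were less affected, with 794 upregulated and 788 downregulated genes. Changes below are relative to the TMM scale. Lists are described by their counts and medians beside those of all tested genes, and none was tested against other genes. Members with too few counts were left out, while a gene could pass the count filter only through the group where it is high.

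**Figure D1:**
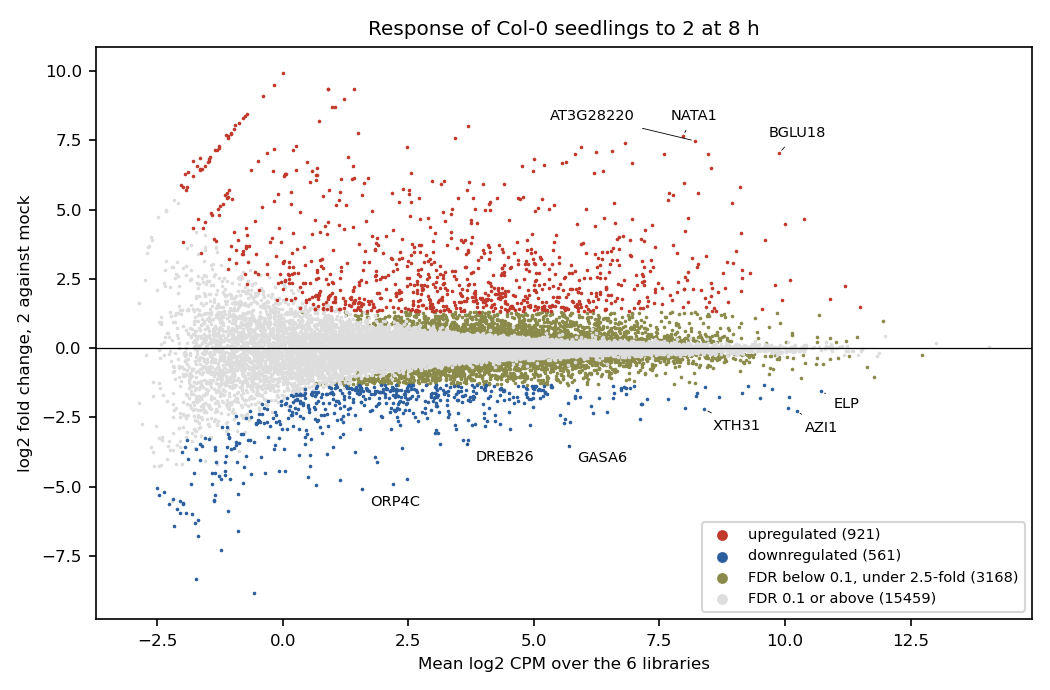
Each point is 1 of the 20109 tested genes, with the mean log2 CPM over the 6 libraries on the x axis and the log2 fold change of **2** against mock on the y axis. The 921 upregulated genes (red) extend further from 0 than the 561 downregulated genes (blue).

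The G-box was looked for on both strands in the 250 bases before the annotated start of 19921 tested genes, in the genome build TAIR10.1. It was found in front of 122 of 916 upregulated genes (13.3%) and 26 of 560 downregulated genes (4.64%), against 7.34% of all tested genes. For genes that rose at least 8-fold the share was 16.3%. The GCC box (GCCGCC), bound by ethylene response factors, stood before 1.64% of upregulated, 0.536% of downregulated and 1.94% of all tested genes, and the evening element AAAATATCT before 2.51%, 3.39% and 2.47%. Motifs of genes for growth were scarcer on both sides. TGGGCC, known from ribosomal protein and cell division genes, stood before 6.55% of upregulated and 5.89% of downregulated genes, against 16.3% of all. The telo box AAACCCTA stood before 1.86% and 1.61%, against 3.43% of all. The E2F site TTTCCCGC stood before only 2 upregulated genes (0.218%) and 1 downregulated gene (0.179%), against 0.622% of all. The mean GC content of the windows was 29.9% for upregulated, 30.7% for downregulated and 31.4% for all tested genes. None of these 6 motifs contains another, and a match describes letters, not binding.

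The promoters of 7 genes are printed to show where it lies, 5 before genes that rose and 2 before genes that fell. Each is the 250 bases before the start, 5′ to 3′ on the gene's strand, with the G-box in capitals (TAIR10.1, RefSeq). The windows are AT3G28220 at chr3:10523931-10524180 (+ strand), PGL5 at chr5:8338033-8338282 (- strand), MBP1 at chr1:19352792-19353041 (- strand), ANAC019 at chr1:19698483-19698732 (- strand), DHAR1 at chr1:6774524-6774773 (- strand), BEE1 at chr1:6331148-6331397 (+ strand) and IAA7 at chr3:8194356-8194605 (+ strand).
AT3G28220: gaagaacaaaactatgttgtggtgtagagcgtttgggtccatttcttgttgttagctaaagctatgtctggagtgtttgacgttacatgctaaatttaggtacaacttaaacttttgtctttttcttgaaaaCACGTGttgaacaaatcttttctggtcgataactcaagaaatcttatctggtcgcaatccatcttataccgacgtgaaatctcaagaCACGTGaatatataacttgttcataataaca
PGL5: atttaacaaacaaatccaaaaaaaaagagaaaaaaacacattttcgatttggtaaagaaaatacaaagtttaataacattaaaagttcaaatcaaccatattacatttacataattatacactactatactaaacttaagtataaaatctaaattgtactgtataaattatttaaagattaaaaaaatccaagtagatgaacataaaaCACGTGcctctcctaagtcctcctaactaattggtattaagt
MBP1: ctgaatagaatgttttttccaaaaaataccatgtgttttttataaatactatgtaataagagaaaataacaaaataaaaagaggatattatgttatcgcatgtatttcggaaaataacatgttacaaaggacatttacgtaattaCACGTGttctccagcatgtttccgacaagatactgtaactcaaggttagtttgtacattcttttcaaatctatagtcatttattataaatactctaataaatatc
ANAC019: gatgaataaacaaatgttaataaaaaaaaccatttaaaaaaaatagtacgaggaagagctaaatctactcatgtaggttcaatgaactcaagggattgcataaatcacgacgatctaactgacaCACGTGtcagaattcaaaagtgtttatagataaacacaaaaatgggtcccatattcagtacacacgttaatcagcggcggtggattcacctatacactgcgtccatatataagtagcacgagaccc
DHAR1: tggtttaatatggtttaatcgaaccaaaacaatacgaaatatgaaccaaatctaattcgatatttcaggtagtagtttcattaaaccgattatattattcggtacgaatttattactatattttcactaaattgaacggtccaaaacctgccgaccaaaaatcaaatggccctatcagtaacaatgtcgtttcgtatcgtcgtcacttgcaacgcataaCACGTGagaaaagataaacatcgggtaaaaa
BEE1: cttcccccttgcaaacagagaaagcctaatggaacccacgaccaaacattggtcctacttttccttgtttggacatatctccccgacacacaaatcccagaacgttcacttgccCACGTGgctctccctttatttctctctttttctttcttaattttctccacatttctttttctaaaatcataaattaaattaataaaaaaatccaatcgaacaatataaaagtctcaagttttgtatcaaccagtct
IAA7: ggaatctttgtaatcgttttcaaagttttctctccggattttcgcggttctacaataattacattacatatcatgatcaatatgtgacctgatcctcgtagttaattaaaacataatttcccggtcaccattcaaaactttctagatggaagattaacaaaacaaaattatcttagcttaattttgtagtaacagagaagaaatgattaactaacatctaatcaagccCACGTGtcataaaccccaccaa
These 7 were chosen after their motifs were seen, among the named genes that hold a G-box.

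The G-box began 118 and 31 bases before the start of AT3G28220, a gene for a TRAF-like protein of unknown function that had 3551, 4628 and 3714 CPM with **2**, against 23.7, 23.5 and 20.02 CPM with mock (log2 fold change 7.48, SE 0.19, adjusted p = 1.6e-24). In PGL5 (AT5G24420), a 6-phosphogluconolactonase of the pentose phosphate pathway, it began 42 bases before the start, and the gene had 1474, 1366 and 1546 CPM with **2**, against 9.20, 8.26 and 8.51 CPM with mock (log2 fold change 7.40, SE 0.20, adjusted p = 2.4e-24). For both genes each library of **2** lay far above each library of mock. The other rising genes shown are MBP1 (log2 fold change 7.08), ANAC019 (5.26) and DHAR1 (4.14). BEE1 (-1.77) and IAA7 (-1.15) carry the same 6 letters and fell.

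Genes for loosening and building the primary wall fell in large numbers. Of 29 tested XTH genes 20 were lower and 3 higher, with a median log2 fold change of -0.91 (all tested genes -0.02). XTH31 (AT3G44990) had 157, 154 and 159 CPM with **2**, against 698, 704 and 756 CPM with mock (log2 fold change -2.20, SE 0.11, adjusted p = 9.0e-17). XTH4 (AT2G06850) had 128, 125 and 113 CPM with **2**, against 545, 536 and 535 CPM with mock (log2 fold change -2.14, SE 0.11, adjusted p = 1.4e-16). Both were abundant in mock, and their groups were far apart. XTH19 (AT4G30290), a root-expressed member, had 5.71, 3.18 and 10.3 CPM with **2**, against 41.0, 62.9 and 36.6 CPM with mock (log2 fold change -2.80, SE 0.29, adjusted p = 2.1e-09). XTH23 (AT4G25810) had 3.96, 3.84 and 5.10 CPM with **2**, against 17.44, 12.7 and 11.3 CPM with mock (log2 fold change -1.67, SE 0.25, adjusted p = 2.8e-06). XTH8 (-1.81) and XTH7 (-0.91) also fell. The 3 that rose, named after their values were seen, were XTH24 (0.43), XTH11 (12.4, 5.52 and 9.63 CPM with **2**, against 1.05, 1.12 and 1.07 CPM with mock) and XTH25, which had 0.571, 1.12 and 0.665 CPM with **2** and no count with mock. Summed over the family, XTH transcripts took 1233 to 1268 CPM with **2** and 2774 to 2832 CPM with mock.

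Expansins moved both ways. Of 24 tested genes 9 were lower and 3 higher (median -0.42). EXPA11 (AT1G20190) had 4.73, 8.52 and 7.41 CPM with **2**, against 34.4, 51.7 and 38.9 CPM with mock (log2 fold change -2.62, SE 0.28, adjusted p = 6.4e-09). EXLA2 (AT4G38400), an expansin-like gene, had 4.24, 5.99 and 3.46 CPM with **2**, against 18.204, 13.6 and 14.2 CPM with mock (log2 fold change -1.77, SE 0.22, adjusted p = 1.2e-07), and its relative EXLA1 fell by a similar amount (-2.10). EXPA10 (AT1G26770) went the other way, with 135, 191 and 148 CPM with **2**, against 44.4, 43.8 and 34.8 CPM with mock (log2 fold change 1.95, SE 0.14, adjusted p = 2.5e-13). The summed level of expansins overlapped between the groups, at 641 to 743 CPM with **2** and 734 to 828 CPM with mock, although more members fell than rose.

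In the sets for wall glycoproteins, the genes called fell with 1 exception. Of 26 arabinogalactan proteins, including the fasciclin-like ones that are anchored at the cell surface, 18 were lower and 0 higher (median -0.61). FLA13 (AT5G44130) had 44.1, 38.2 and 36.0 CPM with **2**, against 195, 193 and 200.3 CPM with mock (log2 fold change -2.31, SE 0.16, adjusted p = 2.3e-13), and FLA9 (-1.30), FLA7 (-0.89) and AGP15 (-0.82) followed. Genes with extensin or proline-rich protein in their annotation are a set not limited to wall proteins, which includes receptor-like kinases. Of 45 tested, 1 was higher and 18 were lower. The extensin-like gene ELP (AT1G12090) had 1079, 958 and 909 CPM with **2**, against 2835, 2877 and 2942 CPM with mock (log2 fold change -1.55, SE 0.09, adjusted p = 1.4e-15), and EXT3, an extensin needed for the cell plate, had 885 ± 16.8 CPM with **2** and 1855 ± 117 CPM with mock (SD, n = 3 each, log2 fold change -1.07). Of 10 genes for primary wall cellulose, 6 were lower and 0 higher, by small amounts, among them the cellulose synthase CESA3 (-0.58), COB (-0.57), the chitinase-like CTL1 (-0.30) and the cellulase KOR1 (-0.29). Genes with tubulin in their annotation, which include tubulin-folding cofactors and FtsZ proteins of plastid division, had 7 of 22 lower and 2 higher, and the tubulin gene TUB1 was among those that fell (19.8 ± 2.78 CPM with **2** and 65.6 ± 0.55 CPM with mock, log2 fold change -1.72, SE 0.12, adjusted p = 4.8e-13).

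Pectin enzymes and their inhibitors moved both ways, with more falls than rises. In the family of pectin methylesterases and their inhibitors 7 of 55 were higher and 16 lower, and among pectin lyases, polygalacturonases and their inhibitors 4 of 60 were higher and 15 lower. The methylesterases PME44 (-1.81) and ATPMEPCRB (-3.45) fell, and PME3 rose (1.12). AT1G70720, annotated as an inhibitor, had 59.1, 62.7 and 55.5 CPM with **2**, against 2.97, 1.12 and 1.43 CPM with mock (log2 fold change 5.03, SE 0.33, adjusted p = 4.2e-14). PGIP2 (AT5G06870), which inhibits the polygalacturonases of fungi, had 433, 436 and 421 CPM with **2**, against 15.5, 17.2 and 16.6 CPM with mock (log2 fold change 4.71, SE 0.17, adjusted p = 1.1e-20). SAUR genes, a family of small auxin-induced proteins that promote acid growth in hypocotyls, had 27 of 61 members lower and 2 higher (median -0.81). AT4G34770 of this family had 2.90 ± 0.191 CPM with **2** and 22.6 ± 4.203 CPM with mock (SD, n = 3 each).

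**Figure D2:**
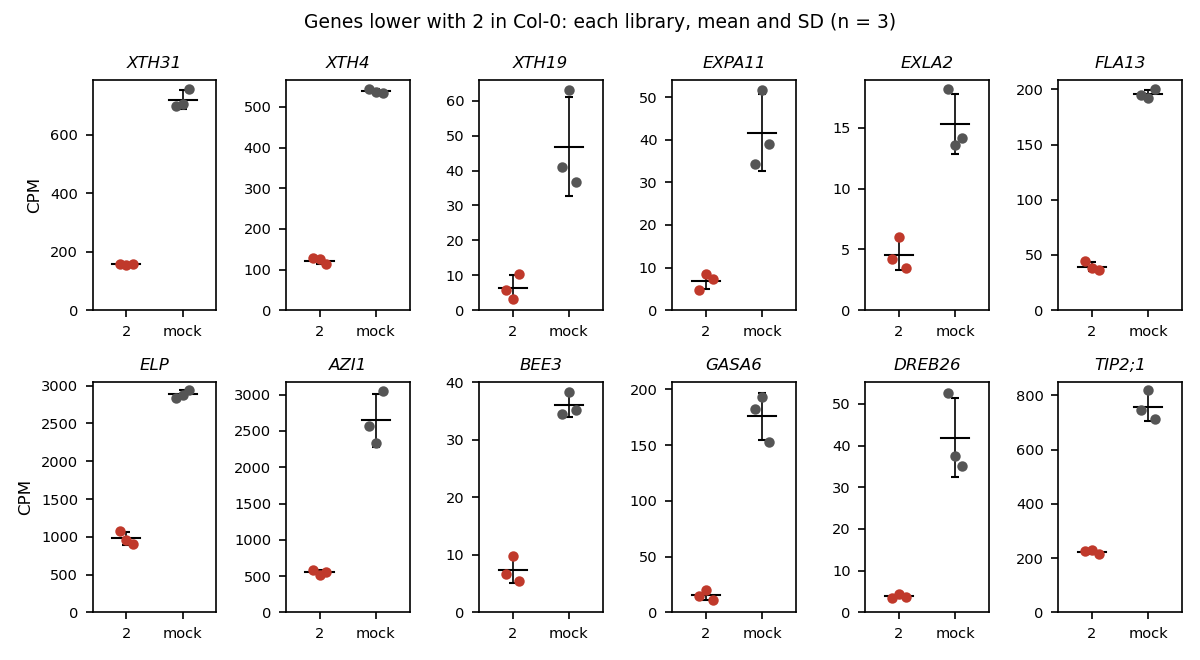
Points are single libraries of Col-0 with **2** (red, left) and mock (grey, right) for 12 genes that fell, in CPM on axes that start at 0, with lines for the mean and bars for the SD (n = 3). For each gene the 3 libraries of **2** lie below the 3 of mock, from XTH31 (157 CPM with **2** and 719 CPM with mock on average) to EXLA2 (4.57 CPM with **2** and 15.3 CPM with mock).

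The surface lipid genes fell as well. Of 27 genes for cuticle, wax and suberin 16 were lower and 2 higher (median -0.70), with LTPG1, a lipid carrier for cuticular wax (-0.91), ATT1, a cutin hydroxylase (-0.93), and FAR1, a fatty acyl reductase of suberin (-1.93). CER3, a subunit of alkane synthesis, was one of the 2 that rose (0.93). Lipid transfer proteins and their relatives had 27 of 70 members lower and 11 higher, and the largest losses of counts were among their members. AZI1 (AT4G12470), a protein of systemic defence priming, had 583, 514 and 555 CPM with **2**, against 2562, 2336 and 3044 CPM with mock (log2 fold change -2.26, SE 0.19, adjusted p = 3.0e-11). Its neighbour EARLI1 (AT4G12480) had 564, 459.7 and 499 CPM with **2**, against 2094, 1977 and 2694 CPM with mock (log2 fold change -2.15, SE 0.30, adjusted p = 7.3e-07), and AT4G12500 of the same cluster was rarer and fell too (-3.31). These tandem copies are similar in sequence, so reads may have been split between them. AT2G45180 had 2451 ± 142 CPM with **2** and 4979 ± 55.6 CPM with mock (SD, n = 3 each, log2 fold change -1.02), which is the largest decrease in mean CPM of all genes called lower. AT4G12545 of the same family rose (2.71).

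Peroxidases and aquaporins moved both ways. Of 63 tested peroxidase genes 19 were lower, 11 higher and 33 not called, with AT5G64100 among those that fell (34.5 ± 0.853 CPM with **2** and 146 ± 19.8 CPM with mock). Among aquaporins 8 of 22 were lower and 8 higher, and 11 lower and 7 higher under total counts. Their summed level was 7019 to 7796 CPM with **2** and 6027 to 6678 CPM with mock. The vacuolar TIP2;1 (AT3G16240), which also carries ammonia, had 225, 229 and 214 CPM with **2**, against 746, 818 and 711 CPM with mock (log2 fold change -1.77, SE 0.12, adjusted p = 1.8e-13), whereas the plasma membrane aquaporins PIP1;1 (1.34), PIP2;3 (1.67) and PIP2;4 (1.47) rose. The germin-like gene AT1G72610 fell (-1.48), as did the plasma membrane proton pump AHA2 (-1.04).

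Genes of growth hormones fell more often than they rose. In the ethylene list 7 of 22 genes were lower and 2 higher. ACO1 (AT2G19590), an ACC oxidase that makes ethylene, had 11.5, 15.3 and 12.9 CPM with **2**, against 48.1, 35.7 and 48.5 CPM with mock (log2 fold change -1.76, SE 0.21, adjusted p = 4.4e-08). EBF1, an F-box protein that limits EIN3, rose (0.74). In the brassinosteroid list 9 of 23 were lower and 2 higher, and the growth-promoting bHLH factors BEE3 (-2.34), BEE1 (-1.77) and BEE2 (-1.26) fell, together with HBI1 of the bHLH family (-1.48). BEE3 (AT1G73830) had 6.61, 9.83 and 5.50 CPM with **2**, against 34.5, 38.4 and 35.2 CPM with mock. DET2, an early enzyme of the hormone's synthesis, rose (1.35). Among auxin-responsive genes 8 of 24 were lower and 2 higher. IAA7, a repressor of auxin response, had 72.2, 79.9 and 78.4 CPM with **2**, against 170.3, 169.7 and 173 CPM with mock (log2 fold change -1.15, SE 0.10, adjusted p = 4.3e-11), and TAA1, the aminotransferase of auxin synthesis, fell (-1.02). In the cytokinin list 9 of 24 were lower and 3 higher, with the response regulator ARR16 lower (-1.34) and LOG1, an activating enzyme, higher (1.85).

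For gibberellin the list was even, with 5 of 23 lower and 5 higher, and 7 lower and 4 higher under total counts. GASA6 (AT1G74670), a gibberellin-induced peptide gene of seedling growth, had 14.9, 20.5 and 11.4 CPM with **2**, against 183, 193 and 152 CPM with mock (log2 fold change -3.52, SE 0.26, adjusted p = 1.1e-12), and GASA4 fell less (-0.65). The gibberellin receptors GID1A (1.31) and GID1B (1.07) rose. In the abscisic acid list 8 of 22 were lower and 6 higher. CYP707A2 (AT2G29090), which inactivates abscisic acid, had 0.204, 0.843 and 0.222 CPM with **2**, against 12.6, 9.37 and 7.90 CPM with mock (log2 fold change -4.76, SE 0.60, adjusted p = 1.3e-07), and the dehydrin COR47 fell (-1.38), whereas ABI1 (1.32), a phosphatase that dampens the response, and AFP3 (2.13) rose. Of 23 genes of light signalling and shade response 10 were lower and 0 higher. They include PIF5, a phytochrome-interacting factor (-0.77), BBX21 (-0.49) and HYH (-0.72), and HFR1 was near the limit of detection (0.449, 0.281 and 0.488 CPM with **2**, against 3.07, 4.24 and 3.62 CPM with mock). Of 10 morning clock genes 3 were lower and 0 higher, and of 16 evening genes 2 were lower and 2 higher, or 2 lower and 0 higher under total counts.

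Among genes with a mean log2 CPM of at least 1 and no overlap between the groups, the largest falls were in a mixed set. Some genes outside these limits fell further by the fit, and the lowest log2 fold change of all genes called was -8.84. ORP4C (AT5G57240), a lipid-binding protein of the oxysterol-binding family, had 0.326, 0.562 and 0.532 CPM with **2**, against 11.7, 24.9 and 11.1 CPM with mock (log2 fold change -5.08, SE 0.48, adjusted p = 2.7e-10). DREB26 (AT1G21910), an AP2/ERF factor, had 3.55, 4.40 and 3.64 CPM with **2**, against 52.7, 37.6 and 35.2 CPM with mock (log2 fold change -3.45, SE 0.20, adjusted p = 2.5e-15). The defensin gene PDF2.1 (-3.75) and the wall-associated kinase WAK1 (-3.60) fell, and so did AT1G70985, a hydroxyproline-rich protein (-4.11), and AT1G65490 (-4.88), AT5G08760 (-4.73) and AT5G57760 (-3.30), for which the annotation gives no function. Of 27 cysteine-rich receptor-like kinases 15 were lower and 2 higher (median -0.87), with CRK10 (-2.02), CRK11 (-3.19) and CRK40 (-1.90) lower and CRK28 (2.31) and CRK29 (1.21) higher. In the list of pattern-triggered immunity 6 of 19 were lower and 4 higher. FLS2 (AT5G46330), the receptor of bacterial flagellin, had 7.02, 4.77 and 5.41 CPM with **2**, against 18.4, 20.8 and 23.8 CPM with mock (log2 fold change -1.86, SE 0.24, adjusted p = 1.9e-07), whereas PEPR2, a receptor of plant danger peptides (2.64), and RBOHD, the oxidase of the oxidative burst (1.66), rose. In the list of salicylate synthesis and response 5 of 20 were higher and 2 lower (median 0.67), with PR2 among those that rose (5.73). WRKY70, a salicylate-responsive factor, was low and fell (1.22, 0.562 and 1.33 CPM with **2**, against 3.54, 3.24 and 5.96 CPM with mock).

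Genes of carbon fixation fell by small amounts. Of 26 genes of the Calvin cycle and photorespiration 14 were lower and 1 higher (median -0.25). RBCS1B (AT5G38430), a small subunit of Rubisco, had 2460.2, 2784 and 2314 CPM with **2**, against 3966, 4410.1 and 3844 CPM with mock (log2 fold change -0.69, SE 0.09, adjusted p = 2.4e-07), and RCA, its activase (-0.56), PRK (-0.49) and GLDP1 (-0.52) were lower too. RBCS genes are near-identical copies, so counts of single members are uncertain. Photosystem and antenna genes did not follow, and their direction depended on the scaling. Under TMM 11 of 42 were higher and 1 lower, and with total counts 3 were higher and 16 lower. LHCB1.4 rose (739 ± 122 CPM with **2** and 331 ± 27.5 CPM with mock) and LHCB2.1 fell (-0.52). Chlorophyll synthesis had 3 of 20 higher and 4 lower, and 11 lower under total counts. In the breakdown and senescence list 7 of 18 were higher and 3 lower. CLH1 (AT1G19670), a chlorophyllase, had 2019, 1938 and 2039 CPM with **2**, against 29.99, 37.3 and 30.1 CPM with mock (log2 fold change 5.95, SE 0.18, adjusted p = 8.5e-23), and SAG21, a senescence-associated gene, fell (174 ± 8.47 CPM with **2** and 536 ± 26.6 CPM with mock).

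Nutrient genes moved in both directions. Of 19 genes for nitrate and ammonium 8 were lower and 5 higher. The glutamine synthetase GLN1;1 (64.9 ± 4.83 CPM with **2** and 204 ± 27.9 CPM with mock) and the xylem loader NRT1.5 (-1.46) fell, and NRT1.8, which retrieves nitrate from the xylem, rose (58.7, 63.5 and 54.0 CPM with **2**, against 5.27, 4.02 and 6.06 CPM with mock). Of 14 phosphate starvation genes 6 were lower and 0 higher, among them SPX1 (-1.34), SQD1 (-0.55) and the transporter PHT1;4 (-0.71). Of 17 iron genes 5 were lower and 1 higher, with NAS1 (-1.04), FER1 (-0.68) and OPT3 (-0.43) lower.

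Cell division genes did not pass the test. Of 24 S phase genes and 29 G2 and M phase genes none was called by edgeR in either direction (3 at an unadjusted p under 0.05, and 0 by DESeq2), with medians of -0.16 and -0.06, and the 27 tested kinesins gave no call by edgeR (median -0.11, 1 at an unadjusted p under 0.05 and 0 by DESeq2). Under total counts 10, 4 and 2 of these were lower. Genes annotated as ribosomal proteins are a set found by name that is not limited to the cytosolic ribosome. Of 283 tested, 19 were lower and 6 higher (median -0.03). Under total counts 147 were lower and 3 higher (median -0.22), so the number called lower rests on the scaling. Pentatricopeptide repeat proteins had 7 of 216 lower and 4 higher. Of 8 reference genes used for RT-qPCR, GAPC1 was lower (-0.40) and the other 7 were not called.

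**Figure D3:**
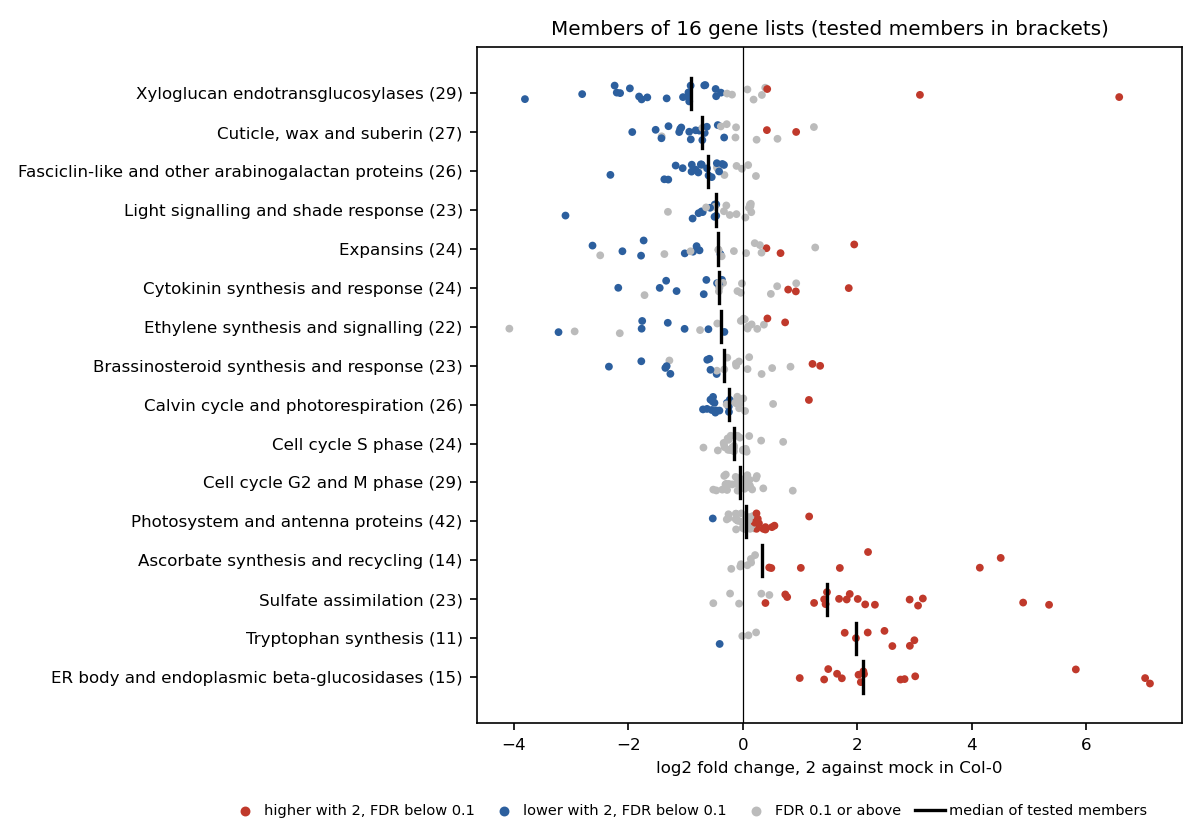
Points are tested members of 16 gene lists, placed by their log2 fold change of **2** against mock in Col-0 and coloured by the test (red higher, blue lower, grey neither), with a black bar at the median. XTH enzymes, surface lipids and arabinogalactan proteins have medians left of 0, and both cell cycle lists are centred near it. Among the 16 lists shown, the ER body list, with 15 of 15 members higher, has the median furthest right (2.11). Some lists not shown had higher medians, such as the JAZ repressors (3.72) and jasmonate biosynthesis (2.81).

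On the rising side, genes of the ER body stood out in abundance. ER bodies are compartments of Brassicaceae that store β-glucosidases, which meet their substrates when a cell is wounded. All 15 tested genes of this list were higher (median 2.11), and their summed level was 31668 to 33292 CPM with **2** and 5725 to 6843 CPM with mock. BGLU18 (AT1G52400), the β-glucosidase of wound-induced ER bodies, had 10516, 10830 and 10990 CPM with **2**, against 93.3, 77.9 and 76.8 CPM with mock (log2 fold change 7.03, SE 0.16, adjusted p = 5.9e-26). The jacalin-related lectin JAL35 (AT3G16470) had 4114, 4069 and 4171 CPM with **2**, against 72.4, 81.4 and 65.7 CPM with mock (log2 fold change 5.82, SE 0.14, adjusted p = 2.5e-25), and JAL23 (7.11), the membrane protein MEB1 (2.76), and NAI1, the bHLH factor that controls ER body formation (2.12), also rose. JAL30, which binds PYK10, had 4845 ± 313 CPM with **2** and 1720.4 ± 154 CPM with mock (SD, n = 3 each). Among myrosinases and specifier proteins 8 of 13 were higher and 2 lower, among them the rising myrosinase-binding proteins MBP1 (922, 870.4 and 784 CPM with **2**, against 7.38, 7.36 and 4.94 CPM with mock, log2 fold change 7.08, SE 0.21, adjusted p = 2.5e-23) and MBP2 (6.84). The nitrile specifier NSP1 rose less (2.55).

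The pathway that supplies sulfur and tryptophan to indolic glucosinolates rose at many steps. Of 23 sulfate assimilation genes 18 were higher and 0 lower (median 1.47). APK2 (AT4G39940), which makes the sulfate donor of glucosinolates, had 437, 434 and 408 CPM with **2**, against 44.7, 50.2 and 49.4 CPM with mock (log2 fold change 3.15, SE 0.11, adjusted p = 4.0e-21), its partner APK1 rose by 2.92, and ATP sulfurylase APS1 by 1.87. GSH2, the second enzyme of glutathione synthesis, had 343 ± 3.11 CPM with **2** and 85.3 ± 3.47 CPM with mock (SD, n = 3 each, log2 fold change 2.01). Tryptophan synthesis had 7 of 11 genes higher and 1 lower. TSA1 (AT3G54640), a tryptophan synthase subunit, had 812, 856 and 861 CPM with **2**, against 111, 101 and 122 CPM with mock (log2 fold change 2.92, SE 0.12, adjusted p = 8.6e-20), and DHS1 (2.48), PAT1 (2.61) and TSB1 (2.18) rose. CYP79B3 (AT2G22330), which turns tryptophan into indole-3-acetaldoxime, had 565, 561 and 514 CPM with **2**, against 34.7, 41.6 and 31.8 CPM with mock (log2 fold change 3.93, SE 0.15, adjusted p = 2.2e-20). Not all genes of the branch rose, since MYB51, one of its regulators, fell (2.04, 0.936 and 2.35 CPM with **2**, against 8.43, 7.59 and 6.73 CPM with mock, log2 fold change -2.03, SE 0.36, adjusted p = 4.7e-05), while MYB34, another regulator, rose (213 ± 7.06 CPM with **2** and 27.8 ± 3.05 CPM with mock). The nitrilases NIT1 (1.77) and NIT3 (3.37), which hydrolyse the nitriles made from glucosinolates and indoles, rose. NIT3 (AT3G44320) had 371, 436 and 361 CPM with **2**, against 33.2, 42.4 and 37.3 CPM with mock. Of 34 glutathione transferases 15 were higher and 3 lower, and GSTF9 (5101 ± 148 CPM with **2** and 1081 ± 27.7 CPM with mock) and GSTF10 (2586 ± 124 CPM with **2** and 472 ± 11.7 CPM with mock), which are neighbouring copies, were the most abundant of those named.

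A few genes of arginine, polyamine and ascorbate metabolism rose strongly. NATA1 (AT2G39030), which acetylates ornithine to a defence metabolite, had 3587, 3437 and 3570.3 CPM with **2**, against 18.4, 21.5 and 13.8 CPM with mock (log2 fold change 7.65, SE 0.21, adjusted p = 2.4e-24). ARGAH2 (AT4G08870), an arginase that degrades arginine, had 2922, 3149.9 and 3028 CPM with **2**, against 80.7, 80.2 and 77.4 CPM with mock (log2 fold change 5.26, SE 0.13, adjusted p = 2.5e-25), and ADC2, the arginine decarboxylase of putrescine synthesis, had 874 ± 113 CPM with **2** and 92.5 ± 10.2 CPM with mock (SD, n = 3 each). In all, 6 of 14 genes of polyamine and arginine metabolism were higher, 1 lower and 7 not called (median 0.16, and -0.03 under total counts). Ascorbate genes had 7 of 14 higher, 0 lower and 7 not called (median 0.34). DHAR1 (AT1G19570), which regenerates ascorbate from its oxidised form, had 2293, 2479 and 2319 CPM with **2**, against 116, 145 and 141 CPM with mock (log2 fold change 4.14, SE 0.13, adjusted p = 6.3e-23), and MDAR3 (4.51) and the synthesis genes VTC5 (2.19) and VTC1 (1.696) rose.

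Most tested genes for proteins that act against insects and for terpene synthesis rose. Of 9 tested protease inhibitors and anti-feeding proteins 8 were higher and 0 lower. VSP1 (AT5G24780), a storage protein and phosphatase toxic to insects, had 4190.3, 4153 and 3635 CPM with **2**, against 39.3, 27.3 and 27.9 CPM with mock (log2 fold change 6.99, SE 0.20, adjusted p = 1.2e-23). AT1G73325, a Kunitz trypsin inhibitor, had 200.4, 195 and 196 CPM with **2**, against 0.383, 1.45 and 0.611 CPM with mock (log2 fold change 8.02, SE 0.27, adjusted p = 1.3e-21). Of 16 listed genes of terpene synthesis, 9 had enough counts to be tested, and 7 of these were higher and 0 lower. Silent genes that did not rise are missing from that share. TPS04 (AT1G61120), a geranyllinalool synthase, had 83.2, 75.2 and 62.6 CPM with **2**, against 0.671, 0 and 0.611 CPM with mock (log2 fold change 7.25, SE 0.53, adjusted p = 6.4e-13), and MRN1, a synthase of the root triterpene marneral, rose (4.12). FAMT, a methyltransferase of farnesoic acid, had 641 ± 42.1 CPM with **2** and 4.93 ± 0.367 CPM with mock (SD, n = 3 each). TAT3, a tyrosine aminotransferase, rose (5.43), and so did CORI3 (AT4G23600), a cystine lyase, with 3563, 3455 and 3524 CPM with **2**, against 36.5, 37.5 and 40.7 CPM with mock (log2 fold change 6.52, SE 0.14, adjusted p = 2.4e-26). GDSL esterases split, with 24 of 59 lower and 11 higher, and AT1G54020 was among those that rose (7.26).

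**Figure D4:**
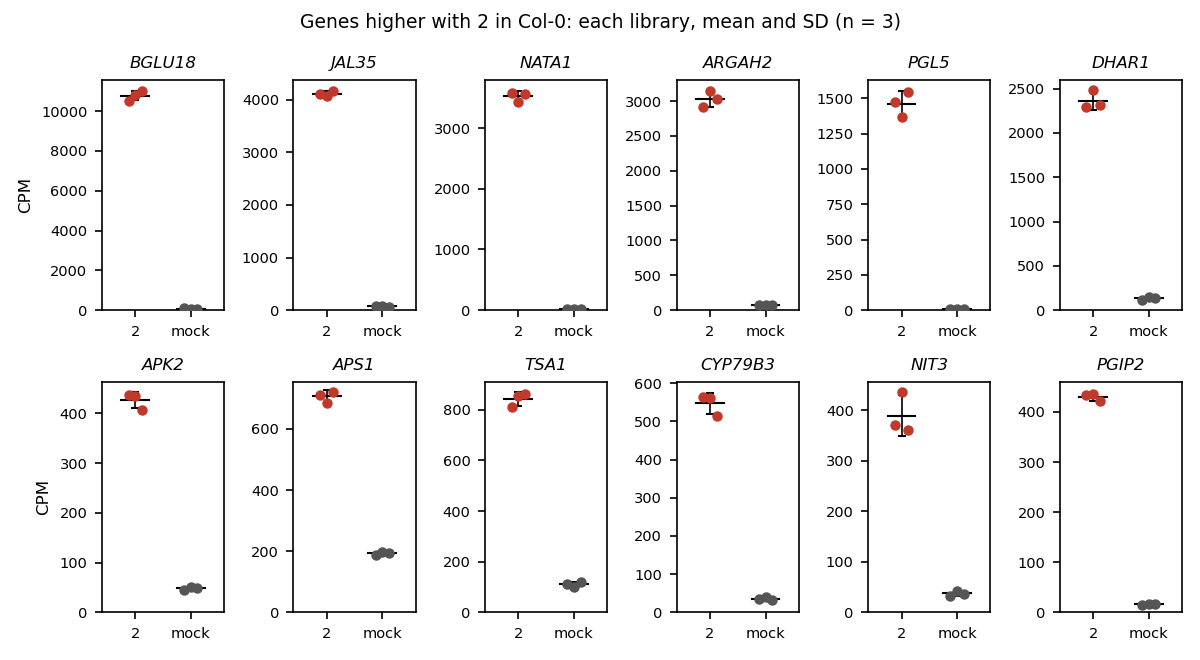
Points are single libraries of Col-0 with **2** (red, left) and mock (grey, right) for 12 genes that rose, in CPM on axes that start at 0, with lines for the mean and bars for the SD (n = 3). The libraries of **2** lie above those of mock in each panel, by a log2 fold change of 7.65 for NATA1 and of 1.87 for APS1.

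Of 27 genes of sugar transport and starch 11 were higher, 3 lower and 13 not called (median 0.24). The β-amylase BAM5 had 167 ± 32.7 CPM with **2** and 2.71 ± 0.865 CPM with mock (SD, n = 3 each), the exporter SWEET12 rose (3.43), as did the vacuolar SWEET16 (1.93) and the cell wall invertase CWINV1 (1.63). SWEET13, named after its values were seen, was called lower, with no count with **2** and 0.602 CPM on average with mock. Regulators of several families were called, where 11.9% of all tested genes were higher and 11.2% lower. Among bHLH factors 21 of 102 were higher and 13 lower, among AP2/ERF factors 15 of 66 and 10, among MYB factors 27 of 175 and 22, among WRKY factors 8 of 54 and 4, and among NAC factors 9 of 65 and 5. For MYB, WRKY and NAC factors these counts were not far from the shares over all genes. The majority turned under total counts for bHLH (16 higher, 22 lower), MYB (22 and 32) and WRKY factors (8 and 9). The NAC factors ANAC019 (5.26) and ANAC055 (5.28), which act below MYC2 in jasmonate signalling, rose, with 30.1, 26.9 and 31.7 CPM with **2**, against 0.479, 0.781 and 0.917 CPM with mock for ANAC055. AT2G22200 of the AP2/ERF family had 169 ± 14.2 CPM with **2** and 4.24 ± 1.86 CPM with mock (log2 fold change 5.40, SE 0.20, adjusted p = 1.5e-20). MYB113, an activator of anthocyanin synthesis, had 30.8, 27.4 and 32.2 CPM with **2**, against 0.0958, 0.223 and 0.102 CPM with mock, a level in mock that stands for 1 or 2 counts a library. In the anthocyanin synthesis list, which also holds TT19, 9 of 13 genes were higher and 1 lower (median 3.14, and 1.17 in jaz9-1). JAM1, a bHLH repressor of jasmonate responses, rose (3.22) along with MYC2 (3.75). The JAZ repressors and the biosynthesis genes of jasmonate rose too, 11 of 12 (median 3.72) and 13 of 14 (median 2.81).

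At the same time and, by the series text, the same dose, the level with **2** was compared directly with the levels with **2e** and with **12**, so that no mock library entered. Against **2e**, 1812 genes were higher (9.01%) and 1711 lower (8.51%) with **2**. Against **12**, 1873 were higher (9.31%) and 1527 lower (7.59%). Of 29 XTH genes 19 were lower and 2 higher than with **2e**, and 17 lower and 1 higher than with **12**. For 26 arabinogalactan proteins the counts were 14 lower and 1 higher than with **2e**, and 10 lower and 1 higher than with **12**. EXLA2 with **2** differed from **2e** by -1.22 on the log2 scale (95% interval -1.67 to -0.77, adjusted p = 7.5e-05) and from **12** by -0.70 (-1.14 to -0.25, adjusted p = 0.029). XTH19 with **2** differed from **2e** by -2.33 (adjusted p = 1.0e-07) and from **12** by -2.00 (adjusted p = 1.6e-06).

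Of the 15 ER body genes, 15 were higher and 0 lower with **2** than with **2e**, and 15 higher and 0 lower than with **12**. BGLU18 with **2** differed from **2e** by 6.21 (5.90 to 6.52) and from **12** by 6.41 (6.10 to 6.73). In the ERF/ORA list, genes of defence against necrotrophic fungi, 5 of 13 were higher and 1 lower with **2** than with mock (median 0.62). With **2e**, 9 of 13 were higher than with mock and 0 lower. Compared directly, 0 of 13 were higher and 6 lower with **2** than with **2e**, and against **12** the counts were 0 and 6. The defensin PDF1.2 rose with **2** against mock (5.40), and its difference of **2** from **2e** was -0.44 (-1.21 to 0.33, adjusted p = 0.57). For PDF1.3, a similar copy with which reads may be shared, the difference of **2** from **2e** was -3.61 (-4.32 to -2.91, adjusted p = 5.9e-10). In the aliphatic glucosinolate list, whose sulfotransferase SOT17 rose with **2** (1.502), 10 of 17 genes were higher and 3 lower with **2** than with mock. With **2e**, 15 of 17 were higher than with mock and 0 lower. In the direct comparison 3 of 17 were higher and 6 lower with **2** than with **2e**.

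The response was then set beside that of jaz9-1, whose libraries are separate from those of Col-0. In jaz9-1, 3006 genes were higher (14.9%) and 2859 lower (14.2%) with **2** than with mock. There were 725 genes upregulated in both genotypes, which is 78.7% of those in Col-0 and 73.5% of those in jaz9-1, and 273 downregulated in both, 48.7% of those in Col-0 and 42.7% of those in jaz9-1. Of the 561 genes downregulated in Col-0, 380 were also lower in jaz9-1 at an FDR below 0.1 and 0 were higher, and of the 921 upregulated genes 807 were higher and 0 lower. XTH genes had 18 of 29 lower and 3 higher in jaz9-1 and arabinogalactan proteins 19 of 26 lower and 0 higher. The set with extensin or proline-rich protein in the annotation had 13 of 45 lower and 7 higher in jaz9-1, against 18 and 1 in Col-0. The test of the difference called 0 of these 45 genes. The Calvin cycle list gave other counts than in Col-0, with 1 of 26 lower and 7 higher in jaz9-1, and so did S phase, with 8 of 24 lower and 1 higher, and G2 and M phase, with 9 of 29 lower and 0 higher. The balance of the ethylene list also turned, with 3 of 22 lower and 6 higher in jaz9-1, against 7 lower and 2 higher in Col-0. For nitrate the counts were 5 lower and 7 higher in jaz9-1, against 8 and 5 in Col-0. For abscisic acid the counts were 6 lower and 8 higher in jaz9-1, against 8 and 6 in Col-0. For pattern-triggered immunity the counts were 4 lower and 5 higher in jaz9-1, against 6 and 4 in Col-0. Light signalling had 5 of 23 lower and 3 higher in jaz9-1, against 10 and 0 in Col-0. Phosphate starvation genes had 5 of 14 lower and 3 higher in jaz9-1, against 6 and 0 in Col-0. Genes annotated as ribosomal proteins had 109 of 283 lower and 6 higher in jaz9-1. The test of the difference called 3 ethylene, 3 nitrate, 3 ribosomal and 1 light signalling gene. It called none of the abscisic acid, immunity or phosphate genes.

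A direct test of the difference between the genotypes called 149 genes (0.741%), and 2 of the 26 Calvin cycle genes, 0 of the 24 S phase genes and 0 of the 29 G2 and M phase genes were among them. The count was 52 without Col-0 replicate 1 of **2** and 1271 without jaz9-1 replicate 1 of **2**. APK2 rose less in jaz9-1, by 2.04 in jaz9-1 and 3.15 in Col-0 (difference -1.11, SE 0.15, adjusted p = 2.2e-04).

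**Figure D5:**
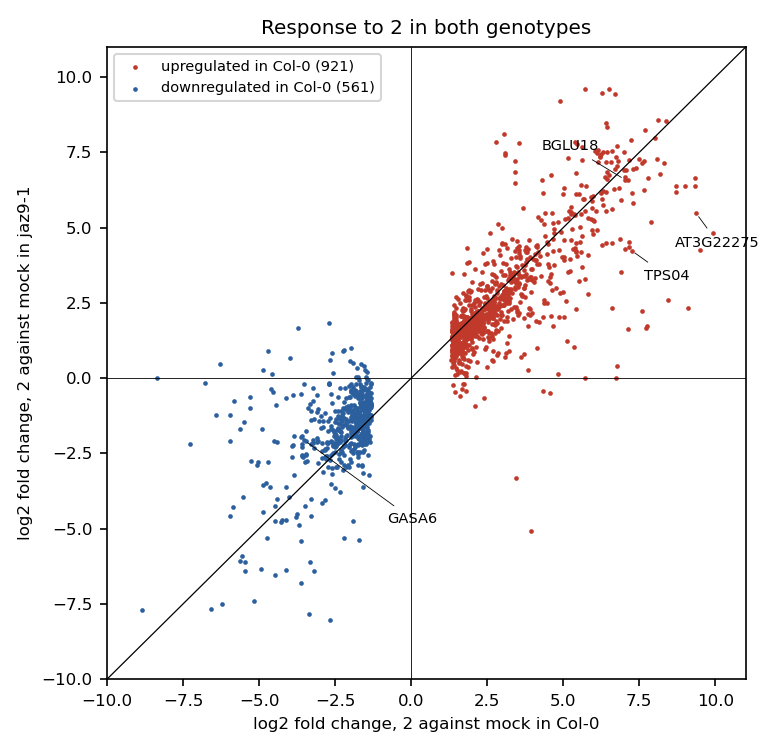
Each point is a gene upregulated (red) or downregulated (blue) by **2** in Col-0, with its log2 fold change in Col-0 on the x axis and in jaz9-1 on the y axis, and the line marks equal values. Genes were chosen by their Col-0 value alone. The median upregulated gene lay at 2.16 in jaz9-1 and 2.52 in Col-0, and the median downregulated gene at -1.44 in jaz9-1 and -1.92 in Col-0.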

How the data were processed

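RNA-seq counts per gene were deposited for 24 libraries of 8 groups. Per the study's methods and processing notes, the authors trimmed reads with Trimmomatic, aligned them with HISAT2 to the TAIR10 genome and counted whole-number counts within gene models with featureCounts by strand, letting a read count for each gene it overlapped. A second deposited table of counts divided by DESeq2 size factors was not used, and 8 unnamed value columns in it were left out. Here counts were fitted over all 24 libraries in R 4.3.3 with the quasi-likelihood test of edgeR 4.0.16, with TMM factors, the count filter filterByExpr and Benjamini-Hochberg adjustment over 20109 genes. DESeq2 1.42.0, other scalings, filters and thresholds, a replicate block and leaving out each library were alternatives. The fit was tested on simulated data.

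Members and gene lists (59 lists by locus, 23 families by annotation) were chosen with earlier results of these data known. Named genes were EXLA2, XTH19 and XTH23, the most significant genes of each list or family (no more than 4), the 15 largest fold changes in each direction at a mean log2 CPM of 1 or more whose groups did not overlap, and the 10 largest CPM differences in each direction. Of 27416 loci, 26719 matched the RefSeq annotation of TAIR10.1, which gave names and promoters. Gene starts are those of TAIR10.1. Library totals were 11680629 to 26580710 counts with **2** and 8626237 to 18815382 with mock, and libraries of a group differed by more than counting noise. The results of 1 gene are not reported here.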

Additional observations from a re-analysis of the deposited data

Results flagged for a closer look

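The response to **2** differed between jaz9-1 and Col-0 in 21 of the named genes reported here by the test of the difference itself, given here as jaz9-1 minus Col-0 on the log2 scale with edgeR's adjusted p. Among genes that rose in Col-0, the difference was negative for TT19 (-2.807, SE 0.491, adjusted p = 0.00407), AT3G22275 (-3.896, SE 0.859, adjusted p = 0.0338), APK2 (-1.107, SE 0.149, adjusted p = 0.000218), APK1 (-0.9561, SE 0.141, adjusted p = 0.000607), GSTF11 (-1.028, SE 0.208, adjusted p = 0.0165) and CYP79B2 (-0.908, SE 0.179, adjusted p = 0.0137). It was also negative for SOT17 (-0.6159, SE 0.148, adjusted p = 0.0608), FMOGS-OX1 (-0.9547, SE 0.251, adjusted p = 0.0943), SWEET12 (-1.073, SE 0.262, adjusted p = 0.0642), AT2G22200 (-1.085, SE 0.273, adjusted p = 0.0732) and AT1G54020 (-1.093, SE 0.261, adjusted p = 0.0597).

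The difference was positive for SAG21 (1.095, SE 0.176, adjusted p = 0.00135), GASA6 (1.46, SE 0.358, adjusted p = 0.0648), FLA13 (0.9661, SE 0.222, adjusted p = 0.0472) and EDF2 (0.9622, SE 0.244, adjusted p = 0.0784). The same held for EXPA10 (0.9003, SE 0.19, adjusted p = 0.0269), XTH7 (0.5069, SE 0.127, adjusted p = 0.0731), GLDP1 (0.6876, SE 0.16, adjusted p = 0.049), AT1G23390 (1.538, SE 0.324, adjusted p = 0.0269), AT2G45180 (0.5209, SE 0.127, adjusted p = 0.0642) and RBCS3B (0.5332, SE 0.115, adjusted p = 0.0338). When each of the 12 libraries was left out in turn, 6 of the 21 kept the call each time, namely TT19, SAG21, CYP79B2, GSTF11, APK2 and APK1, and the other 15 lost it at least once. Groups of 3 libraries were not examined for single outlying values.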

How the results depend on the processing

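Counts of higher, lower, upregulated and downregulated genes in Col-0 stayed within 1.5 times under DESeq2 (2511, 2429, 958 and 621), RLE size factors, no count filter, a fit of the 6 libraries alone and an FDR of 0.05 (2031, 1777, 864 and 488). Without each library in turn they were 2070 to 2255, 1758 to 1904, 885 to 938 and 510 to 538. Scaling by total counts, added after seeing the data, gave 4753 lower genes in Col-0, 1963 higher and 5614 lower genes in jaz9-1, 3783 genes lower with **2** than with **2e** and 4518 lower than with **12**. The genotype difference, 149 genes, was the least stable count, with 290 by DESeq2, 668 without a count filter, 66 at an FDR of 0.05 and 52 to 1271 without single libraries.

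The replicate numbers did not pair the samples. Deviations of same-numbered libraries of **2** and mock correlated at -0.00252, 0.0321 and 0.0262, and a replicate block gave 2417 higher, 2257 lower, 920 upregulated and 546 downregulated genes, and 171 genes for the genotype difference. Over 316 named genes and 4107 pairs of gene and setting, 4002 kept direction and call, 105 lost the call and 0 reversed. The 32 genes that lost the call in some setting include RBCS3B, given above for its genotype difference, and its fall in Col-0 lost the call without replicate 1 of **2** and without mock replicate 2. Low counts limit genes such as CYP707A2 and HFR1, and read sharing limits tandem copies.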
